A study of Mus musculus with 26 samples.

Results

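Macrophage markers were followed here in fast hindlimb muscle as 10 genes: Csf1r, Adgre1, Cd68, Mrc1, Cd163, C1qa, C1qb, C1qc, Lyz2 and Pla2g7. They were taken as every probe set whose platform gene symbol was exactly 1 of these names, which gave 14 probe sets, 3 each for C1qb and Csf1r and 1 for each of the other genes. All 14 passed the filter on low values, and the 10 genes were among 14847 genes tested. Tibialis anterior and extensor digitorum longus (TA/EDL) muscle of 26 mice was measured on Affymetrix arrays, with 1 array per mouse and no 2 arrays holding identical values. MKO mice carried a knockout of PGC-1a, the coactivator encoded by Ppargc1a, restricted to skeletal muscle, and FLOX mice were their littermates with floxed alleles, all housed singly on a mixed C57/BL6 and 129 background. The promoter of the recombinase, and the age and sex of the mice, were not given in those sources that could be used.

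The groups were 7 CR MKO, 6 CR FLOX, 7 control MKO and 6 control FLOX mice. Calorie-restricted (CR) mice received 80% of their own free intake of AIN-93M food in week 1, then 60% of it as an AIN-93M formula made for 40% CR for about 11 weeks. Control mice received AIN-93M food at 90% of their free intake, so both diets lay below free feeding, and every mouse had first spent at least 10 days on free access. Ppargc1a itself, read by 5 probe sets, had more signal in MKO-labelled mice at each of them, with ratios over FLOX of 1.34 to 1.57 on CR and 1.53 to 1.76 on the control diet. For the brightest of them the means were 1674 in CR MKO and 1104 in CR FLOX mice, and 1542 in control MKO and 911 in control FLOX mice. Whether they read exons inside or outside the deletion is unknown here, so they do not check the genotype, and MKO below means a mouse so labelled.

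Macrophages are phagocytes that live in the connective tissue between muscle fibres, clear dying cells and debris, and present antigen. Their survival depends on signals through the receptor CSF1R, and they are a main source of the C1q that starts the classical complement pathway. In whole muscle their transcripts are diluted by those of the fibres, and in such bulk RNA fewer macrophages and less RNA of these genes per macrophage cannot be told apart.

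C1q is built from 3 chains, and the genes of its B and C chains stand close together on mouse chromosome 4. The starts of C1qb and C1qc are shown because these genes varied together from mouse to mouse, and that of Pla2g7 because it changed most between groups and no pair of it with another marker passed. Each window holds 250 bases before and 50 after the start of the gene, taken from RefSeq on build GRCm38.p6. Windows were used for 7 of the 10 genes. The windows lie at chr4:136886151-136886450 on the minus strand for C1qb, at chr4:136892865-136893164 on the minus strand for C1qc, and at chr17:43568201-43568500 on the plus strand for Pla2g7. Capitals mark GAGGAA, or TTCCTC where it reads on the other strand, a core bound by PU.1, the transcription factor of the macrophage lineage.
C1qb: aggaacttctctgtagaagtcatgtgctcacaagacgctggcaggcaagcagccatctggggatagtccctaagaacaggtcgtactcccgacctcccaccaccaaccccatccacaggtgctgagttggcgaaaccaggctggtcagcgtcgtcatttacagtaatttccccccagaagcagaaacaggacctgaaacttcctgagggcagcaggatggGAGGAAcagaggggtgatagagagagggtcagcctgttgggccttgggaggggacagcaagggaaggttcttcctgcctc
C1qc: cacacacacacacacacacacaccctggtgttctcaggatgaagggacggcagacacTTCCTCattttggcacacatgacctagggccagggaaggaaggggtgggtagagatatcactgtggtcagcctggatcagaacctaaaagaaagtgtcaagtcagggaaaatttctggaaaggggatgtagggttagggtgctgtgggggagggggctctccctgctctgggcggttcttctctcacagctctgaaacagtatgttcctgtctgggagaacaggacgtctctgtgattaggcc
Pla2g7: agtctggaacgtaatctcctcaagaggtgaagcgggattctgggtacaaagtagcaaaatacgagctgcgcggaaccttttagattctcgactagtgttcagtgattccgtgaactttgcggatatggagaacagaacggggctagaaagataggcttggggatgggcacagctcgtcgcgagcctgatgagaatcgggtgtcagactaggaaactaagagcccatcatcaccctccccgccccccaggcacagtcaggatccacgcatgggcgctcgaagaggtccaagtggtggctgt
The motif began 30 bases before the start in C1qb and 193 bases before it in C1qc, and was not in the Pla2g7 window. It was present in 4 of the 7 windows (C1qb, C1qc, Cd68 and Mrc1) and absent from those of Cd163, Lyz2 and Pla2g7, while 28.3% of 32851 promoter windows of the same length held it. Lyz2, without the motif, had r = 0.920 with C1qc, and C1qb had r = 0.851 with it by its brightest probe set. Another C1qb probe set lay closer than the brightest to the mean of the other markers (r = 0.950 against 0.873). Whether the motif bears on the covariation was not tested. A match of these letters is a description and not a measured binding site.

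Values are the intensities deposited by the authors, on a linear scale in arbitrary units. Each array had its lowest value at 56.6 to 62.8 and its median at 212 to 232, so that changes of dim genes are compressed. Changes are differences of log2(intensity + 16) with their standard error (SE), from limma fitted over all 26 arrays with 1 mean per group, and the fold given beside a change is on that scale. P-values were adjusted over all 14847 genes, and a gene is said to have risen or fallen where its adjusted p was under 0.05. An intensity of 1 gene is not set against that of another, since probe sets differ in brightness for the same amount of RNA.

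Pla2g7 fell on CR in both genotypes and was higher in MKO than in FLOX mice on both diets. It encodes the secreted platelet-activating factor acetylhydrolase, an enzyme that cuts platelet-activating factor and oxidised phospholipids and travels on lipoproteins. Its lowest, median and highest intensities were 646, 917 and 1409 in CR MKO mice, 410, 600 and 715 in CR FLOX mice, 1358, 1829 and 2443 in control MKO mice, and 1159, 1296 and 1644 in control FLOX mice. All 6 CR FLOX values were under the lowest control FLOX value, as were 6 of 7 CR MKO values relative to control MKO. The means were 968 ± 238 in CR MKO mice (SD, n = 7), 589 ± 108 in CR FLOX mice (SD, n = 6), 1852 ± 352 in control MKO mice (SD, n = 7) and 1333 ± 186 in control FLOX mice (SD, n = 6).

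The fall of Pla2g7 on CR was −1.17 ± 0.15 (SE) on the log2 scale in FLOX mice, or 2.25-fold (adjusted p = 1.52e-05), and −0.94 ± 0.14 in MKO mice, or 1.92-fold (adjusted p = 3.93e-05). Over both genotypes it was 2.07-fold, with 12 of 13 CR values under the lowest control value (adjusted p = 3.06e-08). The genotype difference, MKO over FLOX, was 1.61-fold on CR (log2 change 0.69 ± 0.14, adjusted p = 0.00101), with 6 of 7 CR MKO mice above every CR FLOX mouse. On the control diet it was 1.37-fold (0.46 ± 0.14, adjusted p = 0.0238), with 5 of 7 control MKO mice above every control FLOX mouse. The effect of CR in MKO minus that in FLOX was 0.23 on the log2 scale with a 95% interval of −0.19 to 0.65 (adjusted p = 0.999), so a difference between the genotypes in their response to CR was not detected. The call on the control diet was lost when control FLOX mouse 5 or 6 or control MKO mouse 1 was left out (log2 change 0.39 to 0.42, adjusted p = 0.0553 to 0.0620).

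**Figure D1:**
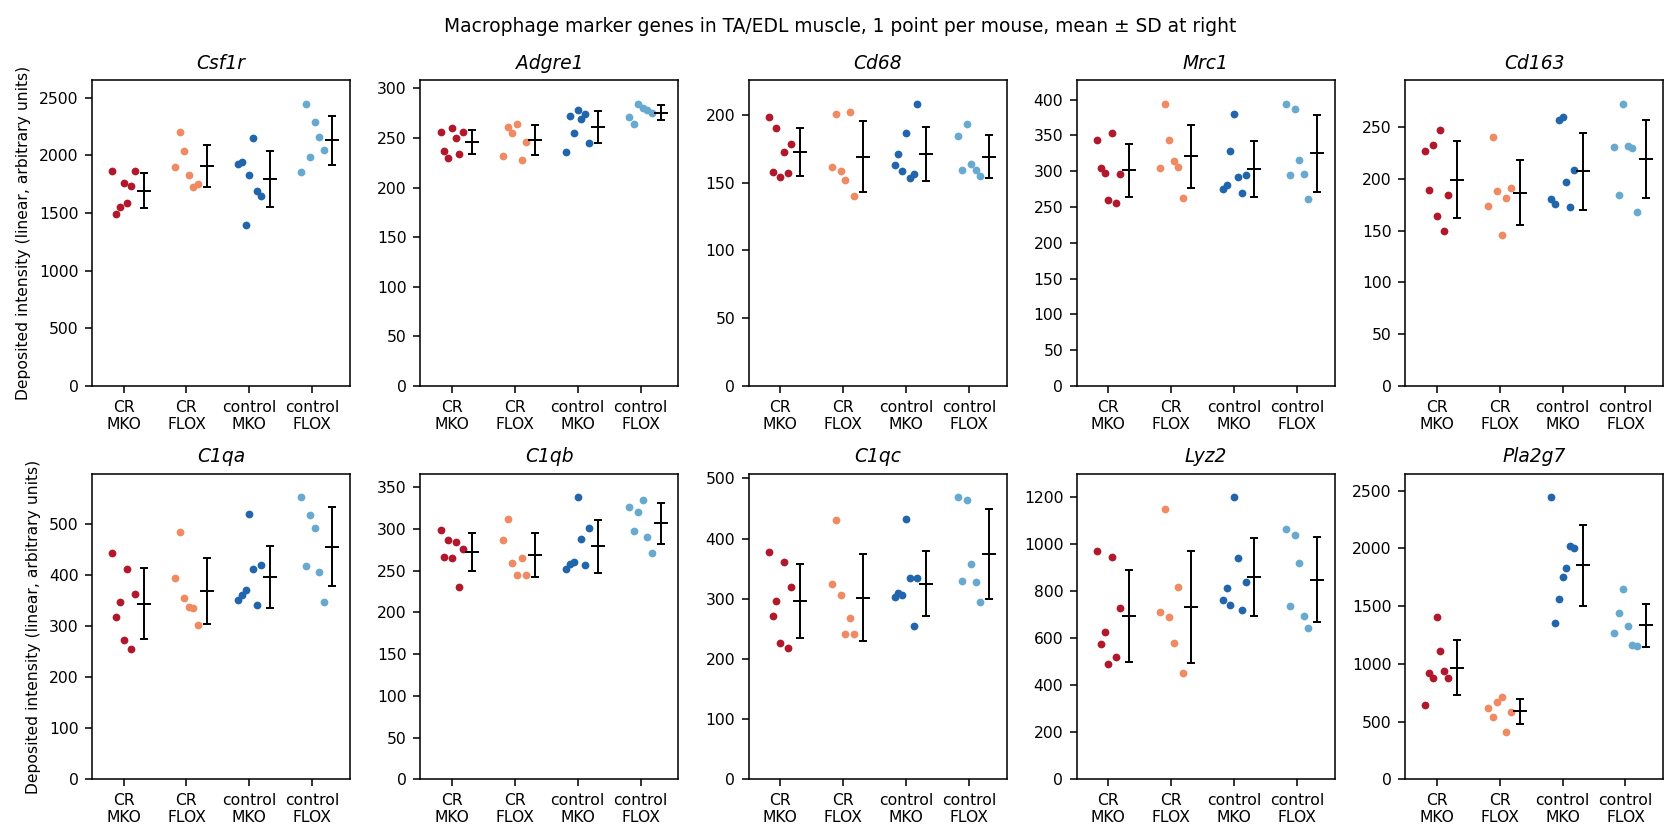
Deposited intensity (linear, arbitrary units, axes starting at 0) of the 10 genes in each mouse, with 1 point per mouse in the order CR MKO, CR FLOX, control MKO, control FLOX and the mean ± SD as a black bar at the right of each group. For Pla2g7 the 6 CR FLOX mice lie between 410 and 715, below all 6 control FLOX mice between 1159 and 1644; most other genes show groups that overlap.

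Adgre1, which encodes the adhesion receptor F4/80 used to identify mouse macrophages, fell by a small amount on CR in FLOX mice and over both genotypes together. Its lowest, median and highest intensities were 230, 249.6 and 259.5 in CR MKO mice, 228, 250.5 and 264 in CR FLOX mice, 235, 269 and 278 in control MKO mice, and 264, 277 and 284 in control FLOX mice. Of the CR FLOX mice 5 of 6 lay below every control FLOX mouse, and 2 of 7 CR MKO mice lay below every control MKO mouse. The change was −0.15 ± 0.04 in FLOX mice, or 1.11-fold (adjusted p = 0.0299), and −0.11 ± 0.03 over both genotypes, or 1.08-fold (adjusted p = 0.00543). In MKO mice it was −0.08 with a 95% interval of −0.16 to 0.00 (adjusted p = 0.194). The call in FLOX was lost when control FLOX mouse 3, 4 or 5 or CR FLOX mouse 1, 5 or 6 was left out (−0.12 to −0.15, adjusted p = 0.0517 to 0.0876), whereas the call over both genotypes held whichever mouse was left out.

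Csf1r, the receptor for CSF1 and IL-34, was measured by 3 probe sets that gave different calls. For the brightest, the lowest, median and highest intensities were 1493, 1737 and 1866 in CR MKO mice, 1723, 1866 and 2200 in CR FLOX mice, 1398, 1831 and 2151 in control MKO mice, and 1861, 2103 and 2449 in control FLOX mice. Control MKO mice were lower than control FLOX mice, with 4 of 7 below every control FLOX mouse (−0.25 ± 0.08, 1.19-fold, adjusted p = 0.0313). In CR MKO against CR FLOX mice the change was −0.17 with an interval of −0.34 to 0.00 (adjusted p = 0.165), and on CR against the control diet it was −0.16 in FLOX (adjusted p = 0.276) and −0.08 in MKO (adjusted p = 0.576). The other 2 probe sets differed by −0.08 (−0.19 to 0.03) and −0.11 (−0.22 to 0.00) between control MKO and control FLOX mice, with adjusted p-values of 0.419 and 0.195 over all probe sets.

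The Csf1r difference kept its direction under other settings but lay near the threshold. The call was lost with the mean of its 3 probe sets (−0.14, adjusted p = 0.0708) and, at the same change of −0.25, with only the 2 groups compared in the fit (adjusted p = 0.0674). It was also lost when control FLOX mouse 2, 4 or 5 or control MKO mouse 3, 6 or 7 was left out (−0.19 to −0.24, adjusted p = 0.0580 to 0.0933). Without control MKO mouse 3, the lowest of its group, Csf1r was called lower on CR over both genotypes (−0.15, adjusted p = 0.0381, against −0.12 and 0.145 with all mice). Deviations of the 3 Csf1r probe sets from their group means correlated with the median of the array at r of 0.68, 0.50 and 0.76 over the 26 mice, against −0.46 to 0.38 for the other 11 probe sets. The Csf1r call held when the arrays were centred on their medians and when they were quantile normalized. The part of array brightness in the Csf1r difference was not tested.

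Cd68, a lysosomal sialomucin, and the scavenger receptors Mrc1, which binds mannose, and Cd163, which takes up haemoglobin bound to haptoglobin, passed no test. Mean Cd68 intensity was 173 ± 17.5 in CR MKO mice, 169 ± 26.2 in CR FLOX mice, 171 ± 19.9 in control MKO mice and 169 ± 15.8 in control FLOX mice. Mean Mrc1 intensity was 301 ± 37.2 in CR MKO mice, 321 ± 44.0 in CR FLOX mice, 303 ± 39.2 in control MKO mice and 325 ± 54.2 in control FLOX mice. The groups overlapped almost fully for both genes. Over both genotypes the effect of CR was 0.00 (−0.11 to 0.12) for Cd68 and −0.01 (−0.15 to 0.13) for Mrc1. As ratios of CR to control these intervals run from 0.925 to 1.09 and from 0.901 to 1.10. Cd68 was dim, with a mean of 7.54 on the log2 scale against the filter at 7.47, so its changes are compressed. Its interval therefore bounds the change in intensity and not that in RNA.

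Cd163 averaged 199 ± 36.9 in CR MKO mice, 187 ± 31.1 in CR FLOX mice, 207 ± 36.9 in control MKO mice and 219 ± 37.5 in control FLOX mice. Its change on CR was −0.21 (−0.47 to 0.04) in FLOX mice and −0.05 (−0.29 to 0.18) in MKO mice, with adjusted p-values of 0.337 and 0.824. Between MKO and FLOX mice it differed by 0.08 on CR and −0.08 on the control diet, and neither difference passed (adjusted p = 0.701 and 0.704).

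The 3 chains of C1q were each lower on average on CR in both genotypes, and C1qa passed the test over both genotypes together. C1qa had lowest, median and highest intensities of 255, 346 and 443 in CR MKO mice, 302, 346 and 484 in CR FLOX mice, 341.5, 371 and 518 in control MKO mice, and 347, 454.5 and 552 in control FLOX mice. The groups overlapped, with 6 of 13 CR values under the lowest control value. Its change over both genotypes was −0.25 ± 0.09, or 1.19-fold (adjusted p = 0.0375), with −0.29 in FLOX (−0.56 to −0.03, adjusted p = 0.162) and −0.21 in MKO (−0.45 to 0.04, adjusted p = 0.279). The call was lost on leaving out control FLOX mouse 1, 3 or 4, control MKO mouse 4, 5 or 7, CR FLOX mouse 3, 4, 5 or 6, or CR MKO mouse 2, 4 or 6 (−0.22 to −0.25, adjusted p = 0.0510 to 0.0739).

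C1qc averaged 296 ± 62.0 in CR MKO mice, 302 ± 71.7 in CR FLOX mice, 325 ± 54.2 in control MKO mice and 374 ± 74.5 in control FLOX mice. Its change was −0.30 in FLOX, −0.14 in MKO and −0.22 (−0.42 to −0.02) over both genotypes, the last with an adjusted p of 0.111. For C1qb the brightest of 3 probe sets, of a kind that can bind several transcripts, averaged 272 ± 22.2 in CR MKO mice, 268 ± 26.3 in CR FLOX mice, 279 ± 31.7 in control MKO mice and 306 ± 24.4 in control FLOX mice. It gave −0.11 over both genotypes (adjusted p = 0.113), whereas the probe set of C1qb without that mark gave −0.25 ± 0.08, or 1.19-fold, which passed (adjusted p = 0.0266 among genes, in an alternative chosen after seeing the data). The third C1qb probe set, which has the mark, gave −0.05 (−0.14 to 0.04) over both genotypes (adjusted p = 0.536 over all probe sets), with −0.08 in FLOX and −0.01 in MKO mice, so 1 of the 3 C1qb probe sets passed. The unmarked probe set averaged 232 ± 36.3 in CR MKO mice, 234 ± 41.4 in CR FLOX mice, 259.8 ± 43.0 in control MKO mice and 300.4 ± 50.7 in control FLOX mice.

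Lyz2, the lysozyme of myeloid cells, averaged 693 ± 196 in CR MKO mice, 733 ± 238 in CR FLOX mice, 859 ± 167 in control MKO mice and 848.5 ± 181 in control FLOX mice. Its change on CR was −0.24 in FLOX, −0.33 in MKO and −0.28 (−0.55 to −0.02) over both genotypes, and none passed (adjusted p = 0.511, 0.229 and 0.113). Probes for Lyz2 and its near-identical copy Lyz1 may bind either transcript, so the share of each in this value is uncertain.

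A single mouse carried much of the spread of these genes within the CR FLOX group. CR FLOX mouse 2 had the highest intensity of its group for 7 of the 10 genes, Csf1r, Mrc1, Cd163, C1qa, C1qb, C1qc and Lyz2, with 1147 for Lyz2 against 452 to 818 in the other 5 mice. Without it, C1qb (adjusted p = 0.0494), C1qc (0.0338) and Lyz2 (0.0319) also passed over both genotypes, and C1qb passed in FLOX mice (0.0437). This made 6 genes lower on CR over both genotypes in place of 3. That was the highest count when each of the 26 mice was left out in turn, where it ran from 2 to 6. Control MKO mouse 4 stood out in a similar way. It had the highest intensity of its group for Mrc1, Cd163, C1qa, C1qb, C1qc, Adgre1 and Lyz2, with 1198 for Lyz2 against 720 to 939 in the others. Without it the C1qa call over both genotypes was lost (adjusted p = 0.0655). A check for outliers by Dixon's ratio, for each gene in each group, flagged 0 of 40.

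Counted together, 2 of the 10 genes fell on CR in FLOX mice (Adgre1 and Pla2g7), where 10% of all genes were called, 4.66% higher and 5.37% lower. In MKO mice 1 fell (Pla2g7), where 15.1% of all genes were called, 6.64% higher and 8.49% lower. Over both genotypes 3 fell (C1qa, Adgre1 and Pla2g7), against 23.9% of all genes called, 11.3% higher and 12.6% lower. None rose in any of these 3 comparisons. With so few genes the counts are near the share called in either direction, though every call was lower and the share called lower was smaller. They are not read as a result about macrophage markers as a group.

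Below the threshold the direction was more uniform on CR: the log2 change was negative for 10 of 10 genes in FLOX, with a median of −0.20, and for 9 of 10 in MKO, with a median of −0.08. The median over all genes was 0.00 in both, and 49.4% and 49.5% of all genes were negative. The 10 genes are not independent of each other, as their covariation below shows. MKO against FLOX mice gave 1 higher gene (Pla2g7) and 1 lower gene (Csf1r) on the control diet, where 19.3% of all genes were called, 9.06% higher and 10.2% lower. On CR it gave 1 higher gene (Pla2g7), where 17.3% of all genes were called, 8.23% higher and 9.05% lower. The median genotype difference of the 10 genes was −0.02 on CR and −0.08 on the control diet, against −0.02 for all genes on either diet. For the interaction of diet and genotype limma called 0 of the 10 genes and 0% of all genes, higher or lower, and at an unadjusted p under 0.05 it held 0 of the 10 and 720 of 14847 genes.

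**Figure D2:**
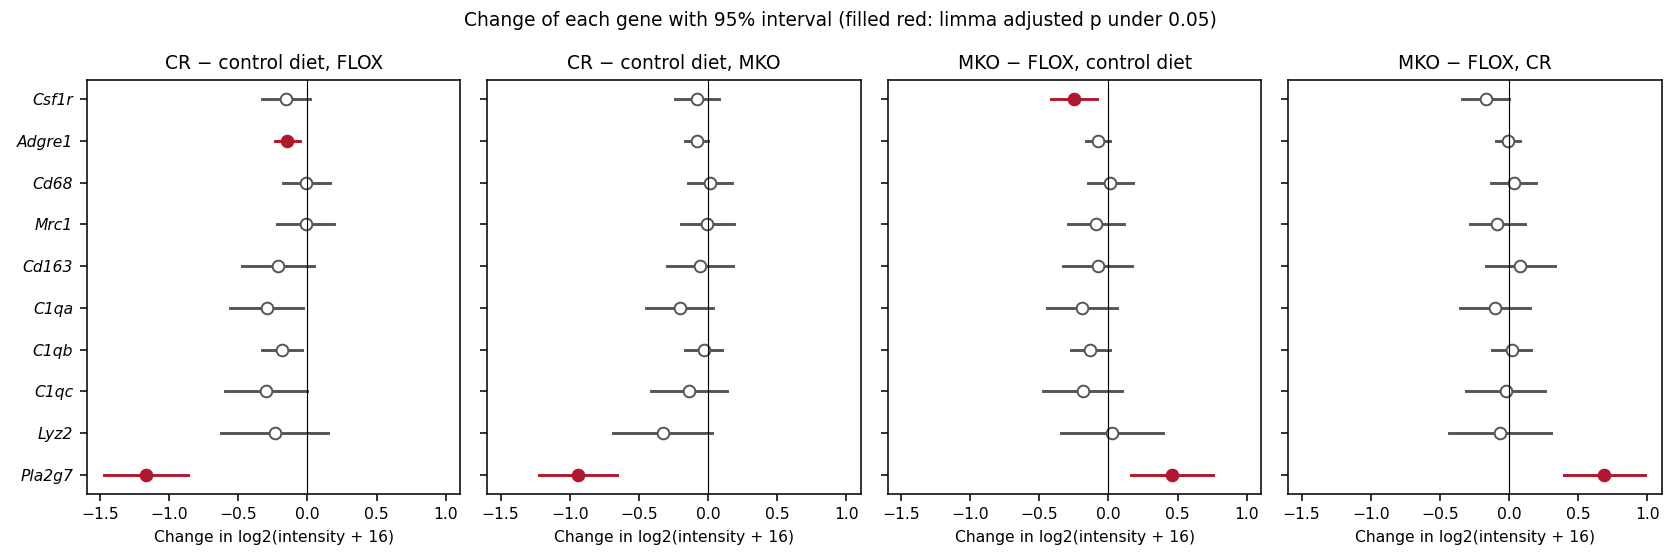
Change of each gene in log2(intensity + 16) with its 95% interval, 1 panel per comparison, where a value below 0 is lower in the group named first and filled red points have a limma adjusted p under 0.05. Pla2g7 is at −1.17 and −0.94 in the CR panels and at 0.46 and 0.69 in the MKO panels, while the other genes lie between −0.33 and 0.08.

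Mouse to mouse, 7 of the genes went up and down together, while no pair of any of the other 3 passed the test, a division read off the values below. Deviations of log2 values from the group mean were correlated over the 26 mice for all 45 pairs, with two-sided p-values from 100000 permutations of mice within groups, adjusted over the 45 pairs. The 21 pairs that passed were the 21 pairs among Cd68, Mrc1, Cd163, C1qa, C1qb, C1qc and Lyz2, with r of 0.55 to 0.96, a median of 0.78 and adjusted p-values of 0.0135 or less. When the 2 mice farthest from the median of the first gene of a pair were left out, the lowest r among these pairs was 0.59. All values of a mouse come from 1 array, so anything that shifts an array as a whole is shared by the pair.

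The closest pair was C1qa with C1qc, at Pearson r = 0.961 and Spearman rho = 0.951, each with a permutation p of 1e-05, the smallest that the permutations can give, and adjusted p-values of 4.5e-05 and 5.62e-05. Without the 2 farthest mice r was 0.949, and within the 4 groups taken singly it ran from 0.924 to 0.997. C1qa with Lyz2 gave r = 0.922 and rho = 0.896 (permutation p = 1e-05 for each, adjusted p = 4.5e-05 and 5.62e-05), and 0.896 without the 2 farthest mice. The weakest of the 21 pairs was Cd68 with Cd163, at r = 0.547 (permutation p = 0.00629, adjusted p = 0.0135) and rho = 0.579 (permutation p = 0.00385, adjusted p = 0.00825).

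For Pla2g7, the gene that changed most between groups, no pair with another marker passed over the 26 mice. Its r with the 7 genes ran from −0.35 to −0.10, and with the mean of the other 9 markers it was −0.20, against 0.95 for C1qa and 0.94 for C1qc. Its lowest value was with Cd68, at r = −0.348 (permutation p = 0.106, adjusted p = 0.216) and rho = −0.318 (permutation p = 0.142, adjusted p = 0.277). Groups taken singly, of 6 or 7 mice each, differed in sign: r of Pla2g7 ran from −0.75 to 0.65 with Cd68, from −0.54 to 0.57 with C1qc and from −0.51 to 0.58 with Lyz2, so the pooled values average over groups of opposite sign. These single-group values were not tested. Adgre1 ran from −0.09 to 0.30 and Csf1r from −0.21 to 0.22 with the same 7 genes, and no pair of either passed. The Csf1r values are from its brightest probe set, and its place depends on the probe set. With the mean of the other 9 markers that probe set had r = 0.10, and the others of Csf1r had 0.52 and 0.27, given with no test. In single groups Adgre1 ranged over −0.22 to 0.65 and Csf1r over −0.65 to 0.89 with these genes, whereas the 21 pairs of the 7 genes were positive in every group, the lowest being Cd68 with Cd163 at 0.29. Of the 10 names, 7 therefore behaved as 1 covarying set in this tissue, and this was not shown for Pla2g7, Adgre1 and Csf1r at this number of mice. The covariation was not limited to macrophage markers. Of all tested genes the closest to Cd163 was the fibroblast marker Pdgfra (r = 0.879), above the highest r of Cd163 with another marker (0.794, with Mrc1). Whether the covariation comes from macrophages was not tested.

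**Figure D3:**
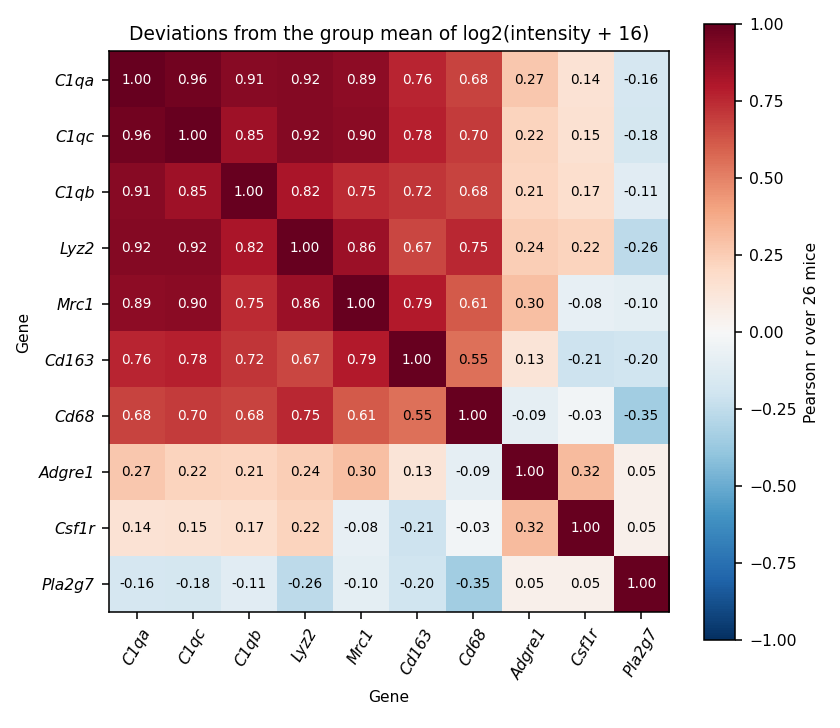
Pearson r over 26 mice between deviations from the group mean of log2(intensity + 16), from −1 (blue) to 1 (red), for each pair of the 10 genes. The block of C1qa, C1qc, C1qb, Lyz2, Mrc1, Cd163 and Cd68 holds r of 0.55 to 0.96, and Pla2g7 has r of −0.35 to −0.10 with these genes.

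**Figure D4:**
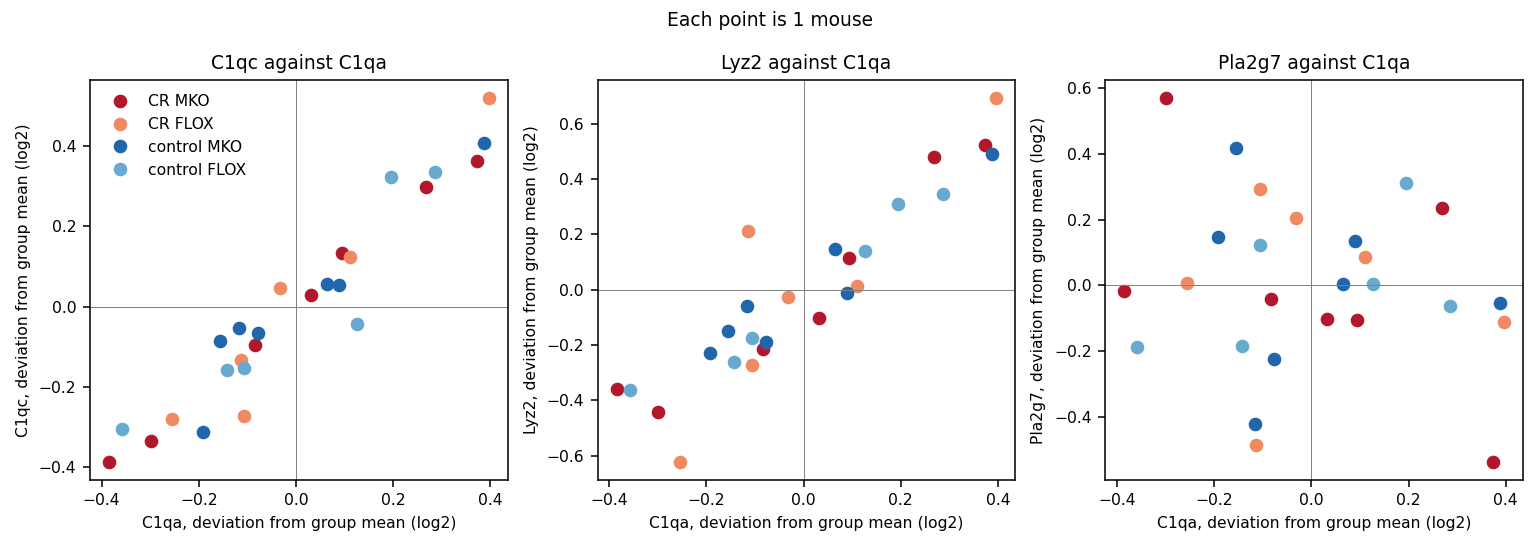
Deviation from the group mean (log2) of C1qc, Lyz2 and Pla2g7 against that of C1qa, with 1 point per mouse coloured by group. C1qc (r = 0.961) and Lyz2 (r = 0.922) lie along a line with mice of all 4 groups mixed, and Pla2g7 (r = −0.16) does not.

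The 8 other genes whose deviations were most like the mean of the 10 markers over the 26 mice were Serping1 (r = 0.916), F13a1 (0.911), Lyz1 (0.910), Pcolce2 (0.891), Scara3 (0.888), Axl (0.860), Dab2 (0.853) and Efemp1 (0.852). Serping1 encodes the inhibitor that stops the C1 complex of complement, F13a1 the A subunit of clotting factor XIII, made by resident macrophages, and Axl a receptor used in the uptake of dying cells. Pcolce2 encodes an enhancer of procollagen processing and Efemp1 an extracellular matrix protein, both known from fibroblasts. These values are a description, given with no test, and the arrays are shared between the genes.

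For this and the next lists, the shares of all genes called on CR were 4.66% higher and 5.37% lower in FLOX mice. They were 6.64% and 8.49% in MKO mice, and 11.3% and 12.6% over both genotypes. In MKO against FLOX mice they were 8.23% and 9.05% on CR, and 9.06% and 10.2% on the control diet. The share of all genes without overlap between groups is not given here. Among genes around the markers, those for the CSF1 axis and lineage transcription factors (9 of 11 tested) gave 1 lower gene on CR in each genotype. That gene was Maf, a transcription factor of resident macrophages that other cells of muscle may also express. Maf averaged 3411 ± 448 in CR MKO mice and 4468 ± 396 in control MKO mice, and fell by 0.39 ± 0.08 on the log2 scale (adjusted p = 0.00104). It averaged 2813 ± 296 in CR FLOX mice and 3586 ± 351 in control FLOX mice (−0.35 ± 0.09, adjusted p = 0.00841), and was higher in MKO than in FLOX mice by 1.21-fold on CR and 1.25-fold on the control diet. Within each genotype the highest CR value was under the lowest control value. On the control diet the other called genes of this list were 2 lower in MKO, Runx1 (1.19-fold, adjusted p = 0.0258), another transcription factor of blood lineages, and Csf1 (−0.19, adjusted p = 0.0289), a ligand of Csf1r.

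Of 30 further genes of mononuclear phagocytes 27 were tested, and Itgam, Aif1 and Vsig4, of which the first 2 are common markers of macrophages, lay under the filter. On CR 1 rose and 0 fell in FLOX mice, 1 rose and 2 fell in MKO mice, and 1 rose and 4 fell over both genotypes, with medians of −0.07, −0.05 and −0.05. The gene that rose was Lgals3, which encodes galectin-3, a lectin of phagocytes. Its intensity averaged 440 ± 80.2 in CR MKO mice against 290.3 ± 39.8 in control MKO mice, and 489 ± 193 in CR FLOX mice against 303 ± 38.3 in control FLOX mice (1.48-fold, adjusted p = 0.00985, and 1.51-fold, adjusted p = 0.0174). Cbr2, a carbonyl reductase, fell 1.82-fold in MKO mice (681 ± 136 on CR against 1262 ± 271 on the control diet, adjusted p = 0.00163). Stab1, a scavenger receptor of macrophages and some endothelium, was lower in MKO than in FLOX mice by 1.23-fold on CR (adjusted p = 2.88e-04) and 1.24-fold on the control diet (adjusted p = 2.14e-04), with 7 of 7 MKO mice below every FLOX mouse on each diet.

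Of the other complement genes 10 of 14 were tested. On CR 5 fell and none rose in FLOX mice, with a median of −0.17, and 4 fell and none rose in MKO mice, with a median of −0.12. C1ra and C1s1, the proteases that ride on C1q, were among them, together with the inhibitor gene Serping1. C1ra averaged 259.6 ± 22.0 in CR MKO mice against 319 ± 19.4 in control MKO mice (1.22-fold lower, adjusted p = 5.96e-04), and 247 ± 19.8 in CR FLOX mice against 317 ± 22.9 in control FLOX mice (1.27-fold lower, adjusted p = 3.56e-04). Serping1 fell 1.39-fold in FLOX mice (1543 ± 218 on CR against 2144 ± 299 on the control diet, adjusted p = 0.00296). Fibroblasts also make these 3 proteins. By genotype 1 of the 10 was higher and 1 lower in MKO mice on each diet, and the higher one was Cd55, which shields cells from complement (1.54-fold on CR, adjusted p = 1.46e-07, and 1.59-fold on the control diet, adjusted p = 7.59e-08).

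The MHC class II genes, which macrophages, dendritic cells and B cells use to present antigen, had 5 of 7 members tested, and all 5 fell on CR in each genotype, with medians of −0.58 in FLOX and −0.63 in MKO. Cd74, the invariant chain, averaged 344 ± 126 in CR MKO mice against 1101 ± 439 in control MKO mice, and 376 ± 128 in CR FLOX mice against 1084 ± 345 in control FLOX mice. CR and control values did not overlap in either genotype (3.07-fold in MKO, adjusted p = 2.69e-05, and 2.82-fold in FLOX, adjusted p = 2.93e-04). Between MKO and FLOX mice limma called 0 of the 5 on either diet, and at an unadjusted p under 0.05 there were 1 on CR and 0 on the control diet. Among genes of alternative activation 5 of 8 were tested, and Retnla, a secreted resistin-like protein, fell 2.00-fold in MKO and 1.99-fold in FLOX mice on CR (adjusted p = 6.97e-04 and 0.00245). Of 11 tested inflammatory cytokines and chemokines limma called 0 in any comparison, and at an unadjusted p under 0.05 there were 0 or 1.

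Among 13 tested lysosomal genes, 1 rose and 2 fell on CR in each genotype. Psap, the precursor of the saposins that help break down sphingolipids, fell 1.26-fold in MKO mice (adjusted p = 4.24e-06) and 1.27-fold in FLOX mice (adjusted p = 1.52e-05). Lamp2, a membrane protein of lysosomes, rose 1.18-fold in MKO and 1.15-fold in FLOX mice (adjusted p = 0.00266 and 0.0194). By genotype 3 of the 13 were higher and 2 lower in MKO mice on CR, where 17.3% of all genes were called. On the control diet 3 were higher and 1 lower, where 19.3% of all genes were called. Ctsl, a cathepsin, was among the higher ones, by 1.36-fold on CR and 1.26-fold on the control diet (adjusted p = 5.27e-05 and 0.00141). These genes are active in muscle fibres too. Of 6 other genes of platelet-activating factor and oxidised phospholipids, 1 rose on CR in each genotype: Pafah2, an intracellular enzyme of the same activity as that of Pla2g7, rose 1.14-fold in both (adjusted p = 0.00590 in MKO and 0.0158 in FLOX).

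Markers of other cells also moved, and their part in the changes of the macrophage markers, by diet or genotype, was not tested. Of 6 fibroblast markers 4 fell in each genotype, and their summed intensity ran from 8149 to 14155 in CR MKO mice, 9449 to 14034 in CR FLOX mice, 15304 to 20532 in control MKO mice and 14915 to 21465 in control FLOX mice. Of 6 endothelial markers 4 fell on CR in MKO and 1 in FLOX mice, with sums of 3706 to 4650 in CR MKO mice, 4536 to 4800 in CR FLOX mice, 4432 to 5532 in control MKO mice and 4574 to 5408 in control FLOX mice. By genotype, Stab1 was lower in MKO mice on both diets. Csf1r was called lower in MKO mice only on the control diet, at the brightest of its 3 probe sets. Of the endothelial markers 3 were lower in MKO than in FLOX mice on CR. Among them were Kdr (1.27-fold) and Emcn (1.10-fold). On the control diet 2 were lower, Tie1 (1.16-fold) and Emcn (1.10-fold). Kdr pointed the other way there, with means of 1394 ± 204 in control MKO and 1236 ± 95.9 in control FLOX mice. Of the 6 endothelial markers 0 were called higher in MKO mice on the control diet. Of 5 tested neutrophil markers 1 rose in MKO and 2 rose in FLOX mice, with sums of 1105 to 1245 in CR MKO mice, 1121 to 1396 in CR FLOX mice, 984 to 1117 in control MKO mice and 990 to 1074 in control FLOX mice. The fibroblast sums of CR and control mice did not overlap within either genotype. The neutrophil sums of CR and control mice did not overlap in FLOX mice, and those of CR and control mice overlapped in MKO mice, as the endothelial sums did in both genotypes.

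For 7 T and NK cell markers, 2 B cell markers and 3 adipocyte markers limma called 0 in any comparison, and at an unadjusted p under 0.05 there were at most 1, 0 and 0. Of 5 mast cell markers 2 were lower in MKO than in FLOX mice on the control diet, Cma1 and Kit (adjusted p = 0.0460 and 0.0498). Of 5 dendritic cell markers 1 rose on CR in FLOX mice (Batf3, adjusted p = 0.0433) and 1 was lower in control MKO than in control FLOX mice (Zbtb46, adjusted p = 0.0489). Of 2 red cell markers 1 rose on CR in FLOX mice (Hba-a1, 1.10-fold, adjusted p = 0.0360). Of 6 fast fibre markers 1 rose on CR in each genotype (Mylpf, 1.06-fold in MKO, adjusted p = 0.0201, and 1.08-fold in FLOX, adjusted p = 0.00808).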

How the data were processed

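Total RNA from TA/EDL muscle of 26 mice was extracted with Trizol, cleaned on RNeasy columns and hybridised as biotin-labelled cRNA, per the labels' protocols. The deposited table holds 1 intensity per probe set and array on a linear scale, computed by the authors, and their background correction, probe summary and normalization are not given in the sources used here. No scan dates or detection calls were used. Groups came from the array titles.

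Deposited intensities were put on the scale log2(intensity + 16) without renormalizing them. Of 45101 probe sets 64 were controls, 34945 named 1 gene, 932 several and 9160 none, and 34741 symbols were updated through gene identifiers. A mean under the 30th percentile (7.47 on the log2 scale) removed a probe set, and the brightest remaining probe set of each gene was tested, 14847 in all. Tests used the functions lmFit and eBayes of limma 3.58.1 in R 4.3.3 (1 mean per group over all 26 arrays) with Benjamini-Hochberg adjustment over these genes, and single probe sets were fitted over all probe sets that are not controls. The code was tested on simulated data. Every one of the 10 markers is named. From each other list the 2 called genes of smallest p per comparison could be named, and the 8 genes most like the markers. Csf1 was named after its values were seen. The members and lists were chosen with earlier results of these data known. The number of arrays limits the precision. Alternatives changed the pseudocount, filter, normalization, probe set, variance model, array weights, arrays fitted, replicate block and mice included.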

Additional observations from a re-analysis of the deposited data

How the results depend on the processing

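Over 12 other settings the number of macrophage markers called stayed at 2 for CR in FLOX, 1 for CR in MKO, 1 for MKO against FLOX on CR and 0 for the interaction, and was 3 or 4 for CR over both genotypes. For MKO against FLOX on the control diet it was 1 in place of 2 with the mean of the passing probe sets, and 1 with only the arrays compared in the fit, each time through the loss of Csf1r; the cause was not tested. The fourth gene over both genotypes was C1qb, without probe sets marked as able to bind several transcripts, an alternative chosen after seeing the data. When each mouse was left out in turn, the number ran from 1 to 3 for CR in FLOX, 1 to 1 for CR in MKO, 2 to 6 for CR over both genotypes, 0 to 2 for MKO against FLOX on the control diet, 1 to 1 on CR and 0 to 0 for the interaction. Of the log2 changes of single markers none changed direction among called values, and over the settings 705 kept their side of the threshold, 2 were lost and 1 was gained; with single mice left out 1527 kept it, 28 were lost and 5 were gained. The count of all genes called ran over the settings from 1330 to 1945 for CR in FLOX, 1716 to 2362 for CR in MKO, 3309 to 3723 over both genotypes, 2282 to 2888 for MKO against FLOX on the control diet and 2403 to 3022 on CR. Of the 8 genes most like the markers, 6 to 8 were kept under 4 other scalings. The array numbers in the titles were not used to pair the mice. Same-numbered mice deviated together (r over 0.1) in 3 of 6, 2 of 7, 4 of 6 and 1 of 6 pairs, with r of −0.35 to 0.34. Mice of different numbers were not compared, so a pairing by number is neither shown nor excluded. With the array number as a replicate block the markers called were 2, 1, 3, 2, 1 and 0 in the 6 comparisons, as without it, and all genes called were 1493, 2194, 3550, 2881, 2513 and 0. Changes of dim genes are compressed by the floor near the lowest intensities.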
